A study of Rattus norvegicus with 42 samples.

Results

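The soleus of rats unloaded for 7 days (D7) was compared with the soleus of rats unloaded for 1 day (D1), over 9844 TSS peaks of the 9971 that were deposited. The 6 libraries came from 3 Wistar rats at D1 (rats 24, 25 and 26) and 3 at D7 (rats 1, 2 and 3), out of 42 libraries in all. Unloading of the hindlimbs was done by suspending the rats by the tail, and the control rats, also 3, were not suspended. The remaining rats were unloaded for 3 days (D3) or were returned to normal load after 7 days and sampled 1, 3 or 7 days later (R1, R3 and R7). Both the soleus and the EDL of each rat were taken, and each library is 1 muscle of 1 rat. D1 and D7 are therefore different animals, and no rat was followed over time.

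The soleus is a postural muscle made mainly of slow fibres, and it loses mass when the hindlimbs no longer bear weight. The EDL is a muscle of mainly fast fibres with little postural load. CAGE captures the capped 5′ ends of RNAs, so that each tag marks the position where a transcript began, and a TSS peak is a cluster of such positions on 1 strand. A gene can have several peaks, and the level of a peak reports how much RNA started there, which depends on transcription and on the stability of the RNA. Bulk muscle also holds RNA of vessels, nerves, connective tissue and blood cells, and fewer cells of a type and less RNA per cell cannot be told apart. The peaks are given by their position on Rnor_6.0, since the files do not pair them with genes and no annotation or genome of that build was used here. Whether a peak lies in an exon, an intron or a promoter was therefore not analysed, nor were marker genes of slow fibres or of other cell types.

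The libraries held 5784163 to 22019390 tags at D1 and 4868926 to 10407753 at D7. Between 88.3% and 95.6% of the tags outside the mitochondrial genome fell in TSS peaks at D1, and between 75.7% and 89.4% at D7. Positions that held a single tag took 3.48% to 10.3% of the tags at D1 and 9.42% to 24.3% at D7. The sequencing lane, as the names of the deposited files give it, also differed. All 3 D7 libraries were in lane 3, whereas rat 24 was in lane 1 with the controls and rats 25 and 26 were in lane 2. Among the 6 libraries the phase and the lane cannot be told apart, and the values that bear on the lane are given beside the results. Levels are in CPM, tags scaled to the TMM-adjusted number of tags in peaks of the library.

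At D7, 58 TSS peaks were higher than at D1 and 44 were lower. These 102 peaks are 1.04% of the 9844 tested (0.589% higher and 0.447% lower), at an adjusted p under 0.05 by edgeR's quasi-likelihood test together with a change of more than 2.38-fold. The median change over all tested peaks was −0.03 on the log2 scale. The rises were the larger changes, with a median log2 fold change of 2.54, against −1.84 for the falls. The D7 and D1 libraries did not overlap in any of the 102 peaks, which was so in 20.6% of the peaks tested. Called peaks were found on 20 chromosomes, 52 of them on the plus strand and 50 on the minus strand.

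**Figure D1:**
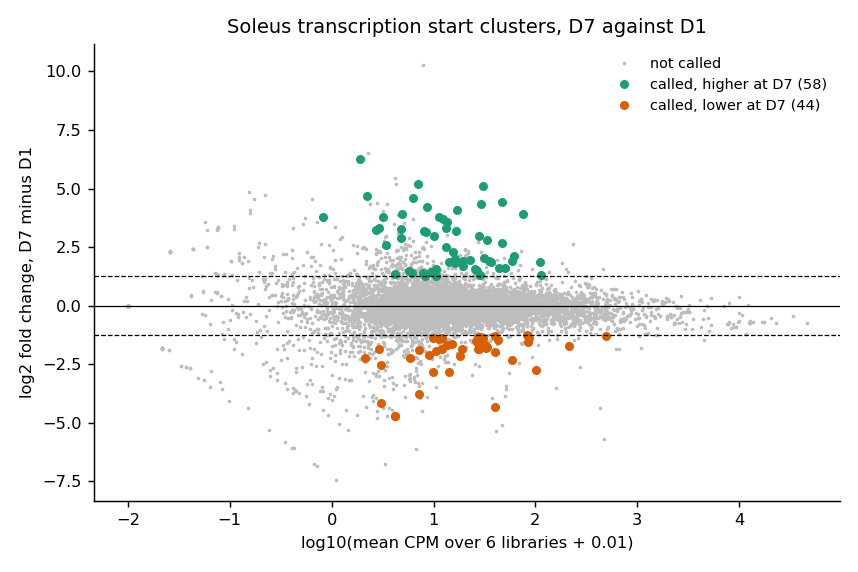
Each point is 1 of the 9844 soleus TSS peaks, with its mean level over the 6 libraries on a log10 axis (CPM + 0.01) and the fitted log2 fold change of D7 minus D1, and the dashed lines mark a change of 2.38-fold in either direction. The median level was 13.9 CPM in the 58 called rises and 26.5 CPM in the 44 called falls. Over tested peaks with a fitted rise or fall it was 11.8 and 13.4 CPM. The highest mean at D1 was 696 CPM among called peaks and 57460 CPM among tested peaks with a fitted fall.

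The number of calls depended on the scaling and on single rats. Without TMM the median of all tested peaks moved to 0.34 and the calls became 222 rises and 22 falls, so that 91.0% of calls were rises against 56.9% with TMM. All changes below are relative to the TMM scaling. The call count was 40 without D1 rat 25, 42 without D7 rat 2 and 33 without D7 rat 3, with 23, 27 and 23 rises and 17, 15 and 10 falls. The falls alone also went to 25 without D1 rat 24 and to 20 without D7 rat 1. The 24 largest changes described below were taken among called peaks with a mean of at least 10 CPM on either day. Of these, 18, 10 and 13 stayed called without D1 rats 24, 25 and 26, and 16, 9 and 9 without D7 rats 1, 2 and 3. The calls that held without any 1 of the 6 rats were 7, the rises on chromosomes 1, 7, 8, 16 and 19 and the falls chr16:20352614-20352752 and chr5:147185355-147185578. With all 42 libraries in 1 fit, 133 peaks were called without the lane, 87 of them among the 102. With the lane as a block 51 peaks were called, 30 of them among the 102, and all 102 kept their direction. With the block the median absolute log2 change of the 102 was 2.27, against 1.95 without it and 1.94 in the soleus fit. The median standard error over all tested peaks was 0.56, against 0.37 and 0.34. Of the 24 largest changes 9 were called with the block, the rises on chromosomes 1, 2, 5, 7, 10 and 13 and the falls on chromosomes 10 and 16 and at chr1:164143784-164143910. DESeq2 called 286.

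The largest rises started from very low levels at D1. The peak chr2:266275441-266275666 on the minus strand stood at 4.47, 0.489 and 1.21 CPM in rats 24, 25 and 26, and at 62.1, 68.5 and 44.8 CPM in the 3 D7 rats. Every D7 library was far above every D1 library, and the log2 fold change was 5.10 ± 0.94 (SE, n = 3 against 3, edgeR adjusted p = 0.00925). The call was lost without D1 rat 25 (change 4.51, edgeR adjusted p = 0.077) and without D1 rat 26 (change 4.85, edgeR adjusted p = 0.0501), and without D1 rat 24 the change was 6.19. The controls lay between the days, at 8.87 to 16.2 CPM, as did the D3 rats at 5.53 to 31.5 CPM.

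The peak chr1:277977208-277977708 (minus strand) held 5.42, 5.30 and 2.14 CPM at D1 and 67.4, 149.6 and 54.6 CPM at D7. All D7 libraries were above all D1 libraries, by a log2 fold change of 4.42 ± 0.76 (edgeR adjusted p = 0.00678). Its controls, at 60.6 to 102.9 CPM, stood at the D7 level and not at the D1 level. The peak chr19:561541-561836 (plus strand) held 4.0, 1.81 and 2.88 CPM at D1 and 42, 80.4 and 45.7 CPM at D7, and its controls lay between the days, at 21.1 to 40.1 CPM. The log2 fold change was 4.34 ± 0.58 (edgeR adjusted p = 0.0021), the call was lost with the lane as a block (edgeR adjusted p = 0.066), and the mean level at R1 was 772 CPM.

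At chr8:81963512-81963882 (plus strand) D1 held 1.41, 3.49 and 0.557 CPM and D7 45.4, 36.8 and 15.1 CPM, against 26.7 to 35.8 CPM in the controls. The groups were apart, and the log2 fold change was 4.08 ± 0.69 (edgeR adjusted p = 0.00599), or 5.23 without D1 rat 25. The call was lost with the lane as a block (edgeR adjusted p = 0.112). At chr16:79671657-79672044 (minus strand) D1 held 5.65, 9.49 and 12.3 CPM and D7 66.4, 190.1 and 166 CPM. Here D7 passed the controls, which stood at 29.8 to 40.3 CPM, but was not called against them (edgeR adjusted p = 0.14). The change from D1 was 3.92 ± 0.63 (edgeR adjusted p = 0.00599), and its call was lost with the lane as a block (edgeR adjusted p = 0.0618).

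In other rises the D7 rats were less alike. The peak chr17:86408061-86409121 (plus strand) had the largest fitted rise among called peaks of at least 10 CPM on either day, 5.21 ± 1.16, and yet its D7 libraries were at 2.01, 3.89 and 35.3 CPM. The D1 libraries, at 0.235, 0.279 and 0.465 CPM, were below all of these but held only 10 tags together. Without D7 rat 3 the change was 3.12 and the call was lost (edgeR adjusted p = 0.19), as it was with the lane as a block (edgeR adjusted p = 0.066). Rat 3 also stood highest at chr5:128557847-128557960 (plus strand), with 4.83, 10.8 and 20.5 CPM at D7 and 0.279 to 0.942 CPM at D1, and at chr7:54247368-54247772 (plus strand), with 7.84, 18.3 and 46.9 CPM at D7 and 1.18 to 2.93 CPM at D1. Without rat 3 their changes were 3.98 (4.59 with all rats, call lost) and 2.48 (3.33 with all rats, still called). The remaining rises were chr4:2812216-2812426, chr13:109648602-109648882 and chr10:51756175-51756478 on the plus strand, and chr18:19149370-19149517 on the minus strand. Their changes lay between 3.58 and 4.22, and in each of them rat 24 had the highest D1 value. The calls at these peaks were all lost without either other D1 rat (edgeR adjusted p = 0.0638 to 0.219). They were also lost without D7 rat 2 or D7 rat 3 (edgeR adjusted p = 0.0539 to 0.143). Without D7 rat 1 the call held only on chromosome 13 (edgeR adjusted p = 0.0366). Without rat 24 the changes were larger, 5.55, 5.18, 4.95 and 4.50 in the order of the peaks above, and all were called. Rat 24 was the D1 rat sequenced in another lane than the other two, and the part of the lane in this was not tested. In all 12 of these largest rises every D1 library was also below every control library, which held for 51 of the 58 called rises and for 949 of the 4631 tested peaks with a fitted rise. The D1 libraries were among those that chose the called peaks, so these counts are partly set by that choice.

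**Figure D2:**
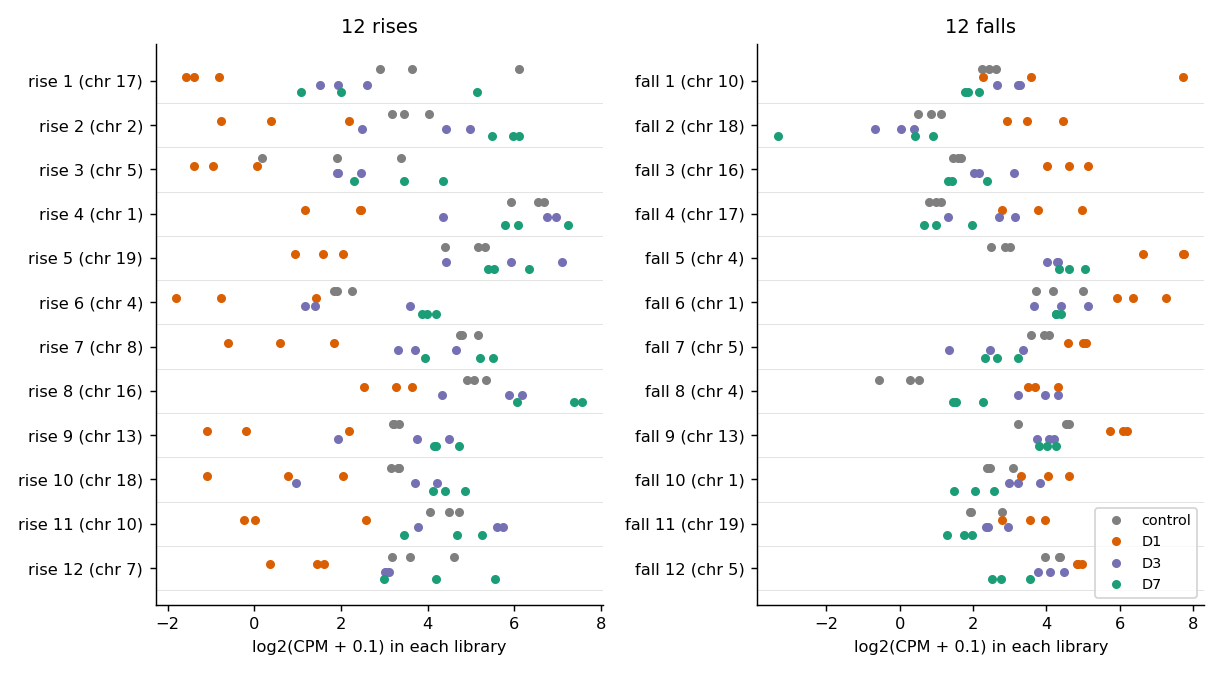
Each row is 1 TSS peak (the 12 largest rises on the left, the 12 largest falls on the right, by rank and chromosome), and each point is 1 soleus library, placed by log2(CPM + 0.1) and coloured by phase, with 3 libraries each of control, D1, D3 and D7. In the rises the D1 libraries lie at the low end, with some D3 libraries inside their range in the rises on chromosomes 4, 13 and 18, and in the falls they lie at the high end, with libraries of other phases inside their range in some. Only called peaks with a mean of at least 10 CPM on either day were ranked.

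The falls mostly left a level at D1 that was above the controls. The peak chr4:148782447-148782582 (plus strand) had 216, 211 and 99.8 CPM at D1 and 24.5, 20.4 and 33.0 CPM at D7, a log2 fold change of −2.77 ± 0.48 (edgeR adjusted p = 0.00696). The groups were far apart, and the call was lost with the lane as a block (edgeR adjusted p = 0.066). The controls were lower still, at 5.57 to 7.96 CPM, but D7 was not called against them (edgeR adjusted p = 0.104). The main start position took 82.3% of the tags of this peak, and it was the same position in all 6 libraries, which makes it a sharp peak.

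At chr1:164143784-164143910 (minus strand) the level went from 61.2, 153 and 82.5 CPM at D1 to 19.1, 19.2 and 21.1 CPM at D7, with controls at 13 to 32.1 CPM. The 3 D7 rats were close to each other, and the change was −2.33 ± 0.43 (edgeR adjusted p = 0.00913). At chr13:52588804-52589624 (plus strand) D1 held 67.6, 72.8 and 53.3 CPM and D7 19.1, 13.8 and 16 CPM, a change of −1.99 ± 0.35 (edgeR adjusted p = 0.00773). This peak spanned 821 nt, with the central 80% of its pooled tags within 62 nt. Its controls, at 9.18 to 24.7 CPM, overlapped the D7 libraries. The call was lost with the lane as a block (edgeR adjusted p = 0.0843). At chr16:20352614-20352752 (plus strand) D1 held 16, 24.4 and 35.0 CPM and D7 2.61, 5.12 and 2.37 CPM, a change of −2.85 ± 0.44 (edgeR adjusted p = 0.00505), with controls at 2.67 to 3.07 CPM.

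The largest fitted fall among called peaks of at least 10 CPM on either day, chr10:49538488-49538711 (plus strand), rested on 1 rat. Its D1 libraries held 11.8, 4.75 and 212 CPM and its D7 libraries 4.42, 3.32 and 3.56 CPM, so that rat 25 was near the D7 level, rat 24 above it and rat 26 far above it. The fitted change was −4.35 ± 0.96 (edgeR adjusted p = 0.0311), and without rat 26 it was −1.09 (edgeR adjusted p = 0.233). A fall with a different course was chr4:49267770-49267952 (minus strand), at 20, 12.8 and 11.1 CPM at D1, 9.34 to 19.7 CPM at D3 and 2.81, 2.65 and 4.75 CPM at D7. Its D3 mean was 14.9 CPM, against 14.7 CPM at D1. D3 libraries overlapped D1 in some other falls too, such as chr17:70684081-70684308, but with a D3 mean below that of D1. At chr4:49267770-49267952 D7 was still above the controls, at 0.584 to 1.33 CPM, but was not called against them (edgeR adjusted p = 0.168). The call of D7 against D1 was lost with the lane as a block (edgeR adjusted p = 0.336). The remaining 6 largest falls lay on chromosomes 18, 17, 5 (2 peaks), 1 and 19, with changes between −3.76 and −1.86. D1 was above every control library in 11 of the 12 largest falls, but in 29 of the 44 called falls, against 934 of the 5153 tested peaks with a fitted fall. As with the rises, the D1 libraries were among those that chose the called peaks, which partly sets these counts.

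The smallest adjusted p by edgeR, 0.0021, was shared by 4 called peaks, 1 of them the rise chr19:561541-561836 described above. The other 3 are described here although they were picked after their values were seen. At chr2:96668137-96668295 (minus strand) D1 held 48.7, 65.0 and 40.0 CPM, which overlapped the controls at 43.1 to 55.4 CPM, and D7 held 16.3, 16.2 and 10.4 CPM. The change was −1.83 ± 0.24 by edgeR (adjusted p = 0.0021), and the D3 libraries lay in between at 24.1 to 34.4 CPM. Here it was D7, not D1, that stood apart from the controls (edgeR adjusted p = 0.00617, against 0.958 for D1). At chr13:90514287-90514379 (plus strand) D1 stood alone, at 68.3, 66.1 and 56.8 CPM against 19.5, 25.6 and 23.2 CPM at D7 and 20.9 to 25.7 CPM in the controls, and the change was −1.48 ± 0.20. At chr2:186333697-186333874 (minus strand) D1 held 9.89, 6.70 and 8.64 CPM and D7 31.0, 32.9 and 28.8 CPM, a change of 1.89 ± 0.26, and this peak returns below for the position of its starts. The most abundant called peak was chr13:36155957-36156218 (minus strand), at 864, 621 and 603 CPM at D1 and 318, 264 and 265 CPM at D7, with a change of −1.30 ± 0.21 (edgeR adjusted p = 0.00599).

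At the other end, 20 called peaks stayed under a mean of 10 CPM on both days. Among them were the largest fitted rise (6.25) and the largest fitted fall (−4.74) of all called peaks. Over the 3 D1 libraries 2 rises had 3 tags or fewer. No called fall had so few at D7. One of these rises, chr1:72420189-72420412 (plus strand), had 1 tag at D1 and 70 at D7. It lies 1836 nt downstream of another called rise, chr1:72418105-72418352, which stood at 2.59, 0.489 and 0.836 CPM at D1 and at 4.02, 8.91 and 11.6 CPM at D7. Such neighbours, called peaks within 10 kb of each other on the same strand, formed 3 pairs, and both peaks of each pair moved the same way. The second pair is the rise chr1:277977208-277977708 with chr1:277975063-277975360, 1847 nt away, which rose by 3.31. The third pair is on chromosome 11 (minus strand), where chr11:61618782-61619186 and chr11:61625413-61625643 fell by 1.60 and 1.51 on the log2 scale.

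The chromosome 11 pair ran almost in parallel over all 21 soleus libraries, with an SD of the log2 difference between the peaks of 0.14, against a median of 1.22 over the 2599 pairs of called peaks that moved the same way. The next most parallel pair joined different chromosomes, chr13:90514287-90514379 and chr18:71614963-71615013, with an SD of 0.15 and a mean difference of only 0.11. The chromosome 18 peak stood at 58.2, 59.5 and 51.8 CPM at D1 and at 20.7, 26.7 and 22.0 CPM at D7. Similarly, chr4:157265716-157266078 and chr9:20279788-20279939 differed by a mean of 0.08 with an SD of 0.21. The paper's methods let a read map to up to 20 loci, though which aligner made these counts is open. Whether these pairs share reads of near-identical sequence was not tested. Each pair is counted as 2 of the 102 peaks, and such peaks are uncertain as separate promoters.

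The shape of the called peaks is given beside that of all tested peaks, and the difference was not tested. The rises were 270 nt wide at the median and the falls 224 nt, against 206 nt and 212 nt over all tested peaks with a fitted rise or fall. Among peaks of up to 100 nt, 8 of 1308 were called, 7 of them falls, whereas of the 4093 peaks over 200 nt and up to 500 nt 51 were called, 30 of them rises. The most used start position took a median of 32.4% of the tags in the rises and 26.3% in the falls, against 23.5% and 21.2% over all tested peaks with a fitted rise or fall. The width that held the central 80% of the pooled tags was, at the median, 64.5 nt in the rises and 53 nt in the falls, against 49 nt and 50 nt. The most used start was the same position in all 6 libraries in 38 of the 102 peaks (37.3%), against 37.0% of all tested peaks.

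At the rises the controls stood near the D7 level, and at the falls they stood between the days. Relative to D1, the median log2 difference over the 58 rises was 2.16 in the controls, 1.63 at D3 and 2.40 at D7, and over the 44 falls it was −1.19, −0.90 and −1.72. Fitted against the controls, the rises had a median of −2.20 at D1, −0.30 at D3 and 0.35 at D7, and the falls had 1.22, 0.12 and −0.68. The D1 and D7 libraries here are those that chose the peaks, and the comparisons with the controls share the same control libraries. The values are given side by side as a description. The mean of the controls was nearer to D7 than to D1 in 51 of the 58 rises (87.9%) and in 25 of the 44 falls (56.8%), whereas over all tested peaks it was nearer in 55.9% of those with a fitted rise and 53.3% of those with a fitted fall. Of all tested peaks, 194 were called at D1 against the controls (1.97%), 71 at D3 (0.721%) and 12 at D7 (0.122%). At an unadjusted p under 0.05 by edgeR the counts were closer to each other, 1532 at D1, 1411 at D3 and 1087 at D7.

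Each soleus library was placed on a line from the mean of D1 (0) to the mean of D7 (1) over the 102 peaks, leaving the library itself out of its own group's mean. The controls stood at 0.772, 0.719 and 0.819, a mean of 0.770 ± 0.050 (SD, n = 3), and D3 at 0.679 ± 0.154. After reloading, R1 stood at 0.898 ± 0.050, R3 at 0.734 ± 0.054 and R7 at 0.587 ± 0.097. Counted by peak, the R1 mean was nearer to D7 than to D1 in 58.6% of the rises and 77.3% of the falls. Over all tested peaks with a fitted rise or fall it was 53.3% and 53.0%. For R7 these values were 46.6% and 52.3%, against 50.9% and 52.0%. A peak far beyond its D7 level weighs more in the place than in these counts, as at chr19:561541-561836 (mean 772 CPM at R1, 56.0 CPM at D7). The D1 and D7 libraries chose the peaks, so their own places are a description: 0.107, 0.002 and −0.0035 at D1, and 0.862, 1.056 and 0.993 at D7. These 102 peaks were chosen for a difference between D1 and D7, which partly sets a gap at the D1 end. Over them no control, D3 or recovery library came near the D1 end. Over all tested peaks that was not so: the D1 libraries stood at 0.201 to 0.443, R3 at a mean of 0.403 and R7 at 0.386, with R7 rat 12 at 0.094, below every D1 library.

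**Figure D3:**
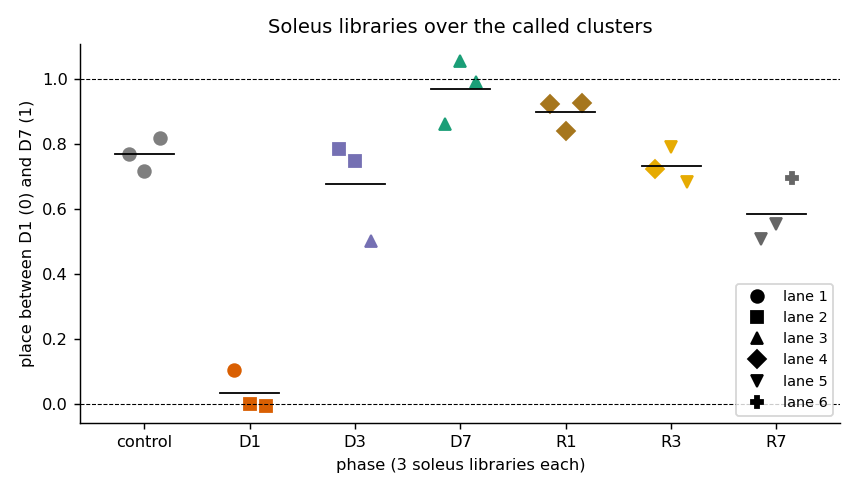
Each point is 1 of the 21 soleus libraries, placed between the mean of D1 (0) and the mean of D7 (1) over the 102 called peaks, with the phase on the x axis, the lane as the symbol and the mean of 3 libraries as a bar. The D1 libraries of both lanes lie at 0.107 or less, and all other libraries lie at 0.503 or more. The peaks were chosen for a difference between D1 and D7, which partly sets this gap.

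These places allow a look within lanes. In lane 2 the D1 rats 25 and 26 stood at 0.002 and −0.0035 and the D3 rats 9 and 10 at 0.786 and 0.748. In lane 1 D1 rat 24 stood at 0.107 and the 3 controls at 0.719 to 0.819, and rat 24 was below all 3 controls in 54 of the 58 rises and above all of them in 40 of the 44 falls, against 44.7% over the tested peaks. In lane 3 D3 rat 11 stood at 0.503, below all 3 D7 rats and below the D3 rats of lane 2. These D1 libraries were among those that chose the peaks, so their places within lanes 1 and 2 are partly set by that choice, and the part of the lane was not tested. Within lane 3 the comparison of D3 with D7 rests on 1 D3 rat.

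The D3 mean lay between those of D1 and D7 in 48 of the 58 rises and 36 of the 44 falls, against 1743 of 4631 and 2019 of 5153 over all tested peaks with a fitted rise or fall. The D1 and D7 libraries that chose the peaks set these ends. Against D1, 33 peaks were called at D3 (0.335% of those tested), whereas 0 were called at D7 against D3 by edgeR, with 773 at an unadjusted p under 0.05. DESeq2 was not run for D7 against D3. At the called peaks the median change from D3 to D7 was 0.70 in the rises and −0.91 in the falls.

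In the EDL of the same rats, 84 of the 102 peaks had enough tags to be tested. The EDL libraries of D1 rats 25 and 26 were in lane 2 and those of D7 rats 1 and 2 in lane 3, as in soleus, and those of rats 24 and 3 were in lane 6, so the muscles share lanes as well as rats and the part of the lane was not tested. Of the 44 rises tested there, 36 (81.8%) also had a positive change in EDL, against 62.8% of all peaks with a fitted rise in soleus, and of the 40 falls 33 (82.5%) had a negative change, against 57.7%. The median EDL change was 0.72 where the soleus median was 1.94, and −0.57 where it was −1.79, in peaks chosen for their change in soleus. Over all peaks tested in both muscles the medians were 0.15 beside 0.30, and −0.10 beside −0.32. Over its whole table EDL had 40 called peaks (0.428% of 9341), 11 higher and 29 lower at D7, and 1 of the 84 was among them. That EDL count was 0 without D1 rat 24 (862 at an unadjusted p under 0.05 by edgeR), 2, 3 and 4 without D7 rats 1, 2 and 3, and 86 without D1 rat 26.

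That peak was chrX:106667411-106667584 (plus strand), which rose in both muscles. In soleus it held 13.2, 15.1 and 14.0 CPM at D1 and 37.4, 28.1 and 52.5 CPM at D7, a change of 1.47 ± 0.33 (edgeR adjusted p = 0.0317). In EDL it held 4.65, 1.34 and 9.91 CPM at D1 and 31.4, 27.4 and 34.1 CPM at D7, a change of 2.30 ± 0.48 (edgeR adjusted p = 0.046). The EDL libraries of D1 rats 24 and 25 were shallow, with 1517246 and 2253394 tags in peaks, against 12314067 in rat 26. Their levels at this peak therefore rest on few tags. The groups were apart in both muscles, and the soleus controls, at 49.5 to 58.6 CPM, were at or above the D7 level.

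**Figure D4:**
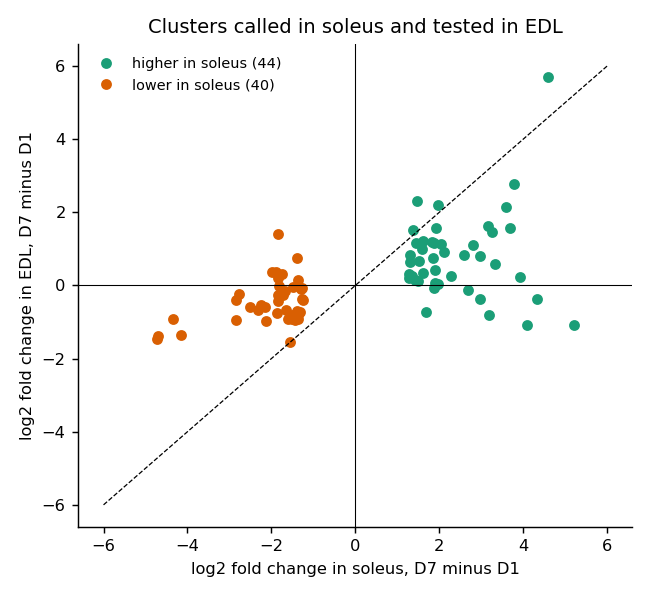
Each point is 1 of the 84 TSS peaks called in soleus and tested in EDL, with its log2 fold change of D7 minus D1 in soleus on the x axis and in EDL on the y axis, and the dashed line marks equal changes. Most points lie nearer to 0 in EDL than in soleus, and the uppermost point is a peak without tags in the 3 EDL libraries of D1, so its EDL value depends on the fit and is not a measured fold.

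The difference of the change between the muscles was tested over the 12 D1 and D7 libraries, for 9504 peaks, and 1 peak was called (0.0105%). It was chr2:88135192-88135585 (minus strand), which was lower at D7 in soleus and higher at D7 in EDL. The 12-library fit gave 4208, 8084 and 4414 CPM at D1 and 1722, 2061 and 2371 CPM at D7 in soleus, and 114, 68.6 and 122 CPM at D1 and 776, 588 and 561 CPM at D7 in EDL. The groups did not overlap in either muscle. The difference, soleus minus EDL, was −4.09 ± 0.51 (edgeR adjusted p = 0.0243). In the fit of soleus alone its fall of 1.46 on the log2 scale missed the call (edgeR adjusted p = 0.0615), whereas in EDL alone the rise of 2.69 ± 0.39 was called (edgeR adjusted p = 0.00592). With the animal as a block, which pairs the muscles of each rat, its adjusted p was 0.207 and 1 other peak was called, the rise chr8:81963512-81963882 described above. The EDL of the rats held 85.6, 288 and 53.2 CPM there at D1 and 81.1, 91.9 and 25 CPM at D7, which overlapped, and the difference between the muscles was 5.34 ± 0.38 (edgeR adjusted p = 0.00388). In the fit without the block, leaving out any 1 of the 6 rats left 0 called, with 331 to 1041 at an unadjusted p under 0.05 by edgeR.

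Starts could also move within a peak without a change of its level. The test took peaks with at least 20 tags in each of the 6 D1 and D7 libraries. They also needed more than 1 start position that held 5% or more of the pooled tags. For the 6274 such peaks, the share of tags upstream of the pooled median start was compared between D7 and D1 with limma, on the logit scale. At an adjusted p under 0.05, 1 peak (0.0159%) had shifted, with 651 at an unadjusted p under 0.05. With the mean start position as the measure limma called 36 (0.574%), and 32 of these lay further upstream at D7. By the share of upstream tags, 2473 of all 6274 peaks lay further downstream at D7. In chr2:186333697-186333874, the rise described above, 52.4%, 50.0% and 45.2% of tags lay upstream in D1 rats 24, 25 and 26 and 28.6%, 25.4% and 26.8% in the D7 rats. The starts thus lay further downstream in every D7 rat than in every D1 rat (difference −0.96 ± 0.12 on the logit scale, limma adjusted p = 0.0282). The controls, at 35.4% to 37.3%, and D3, at 37.3% to 39.7%, lay between the days. The D1 shares rest on 42 to 96 tags a library, and the call was lost when any 1 of the 6 rats was left out (limma called 0, with 475 to 779 at an unadjusted p under 0.05).

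The next 3 peaks of that test missed the threshold. At chr4:180234786-180235189 (minus strand) the upstream share was 35.5% ± 4.4 (SD, n = 3) at D1 and 62.5% ± 2.1 at D7 (limma adjusted p = 0.0628). At chr4:168688989-168690012 (plus strand) it was 38.9% ± 3.7 and 61.7% ± 2.5, and at chr8:90630545-90630990 (minus strand), also a called rise, 67.2% ± 1.2 and 41.9% ± 1.2 (limma adjusted p = 0.115 for both). The D1 and D7 shares did not overlap in any of these 4 peaks, and in each of them the means of the controls and of D3 lay between the days. The 4 peaks were chosen by these same D1 and D7 shares, which partly sets both statements. Neither was counted over all 6274 peaks. Of the 49 called peaks that entered this test, 1 passed its threshold, the chromosome 2 peak. An unadjusted p under 0.05 by limma was found in 12 of the 49, against 651 of all 6274 peaks of the test.

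**Figure D5:**
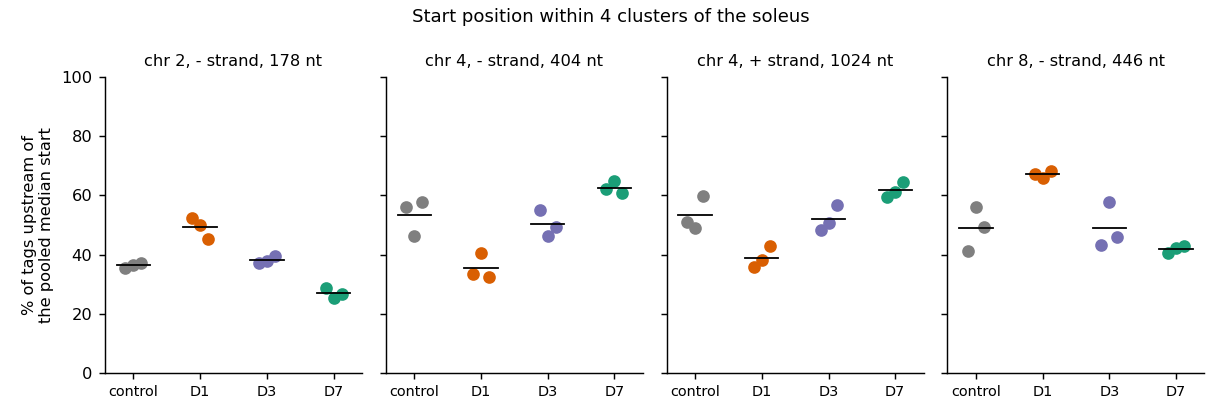
Each panel is 1 of the 4 TSS peaks with the smallest p of the start position test, and each point is the percent of tags upstream of the pooled median start in 1 soleus library, with the mean of 3 libraries as a bar. D1 and D7 lie on opposite sides of the controls and D3 by their means in all 4 panels, and the first panel is the peak that passed the test. The peaks were chosen for a difference between D1 and D7, which partly sets this.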

How the data were processed

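The authors made CAGE libraries, trimmed the reads with Trimmomatic (0.38 per the labels), and mapped them to Rnor_6.0. The methods name STAR for the mapping, with up to 20 loci allowed per read, whereas the submitters' processing notes list BWA and HISAT2. The authors deposited raw tag counts per start position and over 9971 clusters (TSS peaks), and 42 normalized columns that were not used. Tag counts rebuilt from the start positions equalled the table in the 12 libraries checked.

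The 2 mitochondrial clusters were left out. Counts of the 21 soleus libraries (7 groups of 3) were tested in 1 fit with edgeR 4.0.16 in R 4.3.3 (filterByExpr, TMM, quasi-likelihood, Benjamini-Hochberg), which left 9844 peaks. The median biological coefficient of variation was 0.284. Calls needed an adjusted p below 0.05 and more than a 2.38-fold change either way. The standard error is the change divided by the square root of F. EDL was fitted likewise, the muscle difference over the 12 D1 and D7 libraries, and start positions with limma 3.58.1 (at least 20 tags, 0.5 added to each side). Start positions were tested only in peaks with more than 1 start position of 5% or more of the pooled tags. Tests were tried on simulated data. Replicates are different rats.

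The peaks given by position are the 12 largest rises and falls among called peaks with separated groups and at least 10 CPM in either, the called muscle differences, and the 4 smallest p of the start test, plus peaks picked after their values were seen: 3 of the smallest adjusted p, the most abundant called peak, the neighbouring and the parallel pairs, and the peak called in both muscles. The members and lists were chosen with earlier results of these data known. Gene lists and cell markers were not counted, since no annotation of the build was used here. The animal number pairs the muscles of 1 rat. The deviations of the muscles of a rat from their group means correlated with r between −0.338 and 0.277 over 9237 peaks. Alternatives were DESeq2 1.42.0, other scalings, filters and library sets, the lane, and leaving out each rat.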

Additional observations from a re-analysis of the deposited data

Results flagged for a closer look

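By edgeR over the 12 D1 and D7 libraries, the change from D1 to D7 differed between the muscles at 1 TSS peak without a block and at 1 other with the animal as a block. At chr2:88135192-88135585 the difference, soleus minus EDL, was −4.09 on the log2 scale in the fit without a block. At chr8:81963512-81963882 it was 5.34 in the fit with the animal as a block. Neither peak was called in both of these fits. The first was also called in the fit of all 42 libraries (8 calls), by DESeq2 (51 calls), without TMM (2 calls) and without a filter on low counts (1 call), and was not called when any 1 of the rats was left out.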

How the results depend on the processing

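Among the soleus calls, DESeq2 gave 286 (145 higher, 141 lower, all but 1 of the 102 among them), library totals without TMM 244 (222 and 22), and all 42 libraries with the lane as a block 51 (35 and 16). Leaving out 1 rat gave 33 to 86 in all, 23 to 49 higher and 10 to 45 lower. The other settings, with 85 to 139 calls, stayed within 1.5 times of 102 for the total, but not always with the same peaks: the 6 D1 and D7 libraries alone called 92, with 49 of the 102 among them (31 rises and 18 falls). The cause of each shift was not tested, except that the fits without a rat had fewer samples.

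In EDL, DESeq2 called 151, the 6 libraries alone 0 (edgeR, 693 at an unadjusted p under 0.05), totals without TMM 11, and leaving out 1 rat 0 to 86. For the muscle difference, the fit with the animal as a replicate block, which uses the pairing, also called 1, the fit of all 42 libraries 8, DESeq2 51, totals without TMM 2, and leaving out 1 rat 0 in each case. For start positions, the mean start position called 36 with limma, 32 of them further upstream at D7. At least 50 tags gave 0 (387 at an unadjusted p under 0.05), the 6 libraries alone 0 (533) and leaving out 1 rat 0 in each case. Over all tested peaks the controls stood at a place of 0.625 and D3 at 0.459.

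Of the 24 largest changes, none changed sign under DESeq2, the 6 libraries, no TMM, the lane block or the loss of 1 rat. They stayed called in 24, 15, 22 and 9 cases under the first 4, and in 75 of 144 fits that left out a rat. Without a minimum fold change 139 peaks were called.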
